A study of Mus musculus with 15 samples.

Results

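The mitochondrial respiratory chain genes of mouse testis were examined in 15 RNA sequencing libraries. The set was chosen by gene name from the mouse RefSeq table: the protein-coding genes of complexes I (Nduf), II (Sdh), III (Uqcr) and V (Atp5), the subunits 4 to 8 of cytochrome c oxidase (Cox, complex IV), and the genes Cyc1, Cycs and Cyct. Of 99 RefSeq genes of this kind 98 were found among the 23510 rows of the deposited table, and Ndufb1 was not analysed here. They comprise 38 genes of complex I, 8 assembly factors of complex I, 4 genes of complex II, 9 of complex III, 20 of complex IV, 17 of complex V and 2 of cytochrome c. Despite their names, Ndufa4 and Ndufa4l2 were counted in complex IV.

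The mice were males of the ICR stock, and the 5 groups held 3 libraries each. Con was the control with no named vector, MNC received lentivirus with the vector control shNC, and M1, M3 and M5 received lentivirus with shRNA against the muscarinic acetylcholine receptor of that name. Per the study's methods, the viruses were injected into the testes of mice at 5 weeks of age, each knockdown mixed several shRNAs against its gene, and testes were collected 10 days later. Infection through a whole testis reaches an unknown share of its cells, and a testis holds germ cells of every stage beside Sertoli, Leydig and blood cells, so in these bulk libraries fewer cells of a type and less RNA per cell cannot be told apart. Nothing in the labels says whether the 3 libraries of a group came from 3 animals, so p-values measure the spread between these libraries, which may be technical. Titles and tissue entries say testis, although the labels describe the extraction as made from sperm.

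Complexes I to IV carry electrons from NADH and succinate to oxygen, complexes I, III and IV pump protons across the inner mitochondrial membrane, and complex V uses the return of the protons to make ATP. Cytochrome c is the small soluble protein that carries electrons from complex III to complex IV. Male germ cells make their own forms of several of these proteins: Cyct in place of the somatic cytochrome c gene Cycs, Cox6b2 in place of Cox6b1 and Cox8c in place of Cox8a.

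Levels were given as FPKM, which is scaled for gene length and for the mapped total of a library, and summed to between 470243 and 513817 per library. The absolute depth is unknown, so the precision of a single value could not be stated. The targeted genes did not check the labels: Chrm1, Chrm3 and Chrm5 were at 0.43 FPKM or less in every library, and Chrm5 had 0.37, 0.22 and 0.37 FPKM in M5 against 0.43, 0.23 and 0.43 in MNC. Some libraries stood apart. The library labelled M3 replicate 3 deviated towards M5 from the mean of its group mates in 95.1% of the 820 genes called between M5 and MNC, and whether it was exchanged or mixed with another library cannot be settled from the labels. M5 replicate 3 had the highest sums of 6 Leydig cell markers (3137 FPKM, against at most 1993 elsewhere) and of 7 Sertoli cell markers (680 FPKM, against at most 571 elsewhere). Sums of 5 red blood cell markers were 148 to 491 FPKM in M5 and 21.8 to 98.9 in the other groups. Con differed from the injected groups in epididymis markers (5 genes, 17.3 to 36.2 FPKM, against 1.53 to 2.40 in MNC), with 24.3 FPKM in M3 replicate 1. Con was also lower in the sum of macrophage markers (5 genes, 20.1 to 27.0 FPKM, against 83.0 to 197 in MNC). Among the 4 of them tested between MNC and Con, 1 was called, with log2 differences from 0.16 to 3.12 (median 0.43). The sum therefore does not describe each marker. The part of these differences in the results was not tested.

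The respiratory chain genes were abundant. The 98 genes had a median of 69.5 FPKM over the 15 libraries, against 8.84 FPKM over the 14514 genes whose mean reached 1 FPKM, which were the genes tested. Of the 98 genes 94 reached that mean. The 4 that did not were Ndufb4b (0.0647 FPKM) and 3 tissue forms of complex IV: Cox4i2 (0.581), Cox6a2 (0.146) and Cox8b (0.0287). Cox6a2 and Cox8b are known from heart and skeletal muscle. Cox7a1, a further muscle form, was at 3.72 FPKM. Within groups the 94 genes varied little, with a median SD of 0.11 on the log2(FPKM + 1) scale, against 0.13 over all genes tested. The exceptions with the highest SD were Atp5e (0.58), Cox7a1 (0.50) and Atp5g1 (0.49). Atp5e, the epsilon subunit of complex V, was at 88.1, 160.1 and 31.4 FPKM in the 3 MNC libraries and at 191, 191 and 188 in Con, so its values are not read as a difference between groups.

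Each complex spanned a wide range of levels. In complex I, which oxidises NADH, Ndufc1 was highest (218 FPKM) and the median was 57.9 FPKM. The 8 assembly factors, which are not part of the finished complex, had a lower median of 10.2 FPKM and ran from Ndufaf6 (1.04) to Ndufaf3 (154). In complex II, which oxidises succinate, Sdhb (iron-sulfur subunit) was at 68.0 FPKM and Sdhd (membrane anchor) at 29.1. In complex III, Uqcrc1 (core protein) was at 124 FPKM and Cyc1, the cytochrome c1 subunit, at 30.5. Complex IV held both the highest and the lowest of all 98 genes, Cox8c (704 FPKM) and Cox8b. In complex V, Atp5b (catalytic beta subunit) was at 313 FPKM and Atp5g2 (membrane ring subunit) at 35.3. The median of complex V was 104 FPKM. A further pattern was singled out after the values were seen. The 3 genes on the X chromosome were low, with Cox7b at 7.0 FPKM, Ndufb11 at 16.4 and Ndufa1 at 26.4, against a median of 72.3 FPKM over the 95 autosomal genes.

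**Figure D1:**
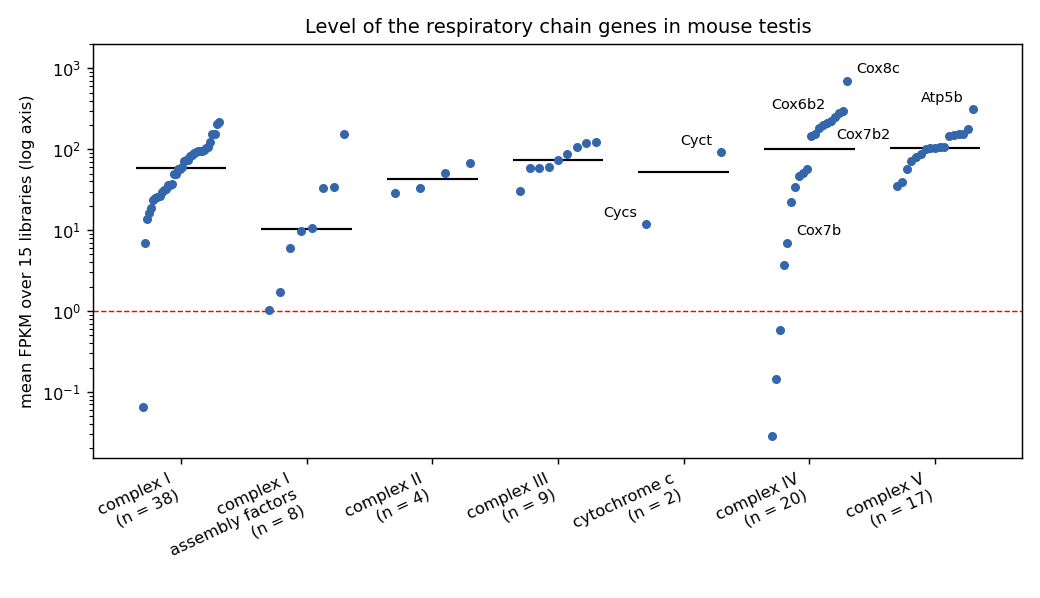
Mean FPKM over the 15 libraries (log axis) of each of the 98 respiratory chain genes, 1 point a gene, by complex, with the median as a black line and the filter at a mean of 1 FPKM as a dashed line. Cox8c stands highest at 704 FPKM and 4 genes lie under the filter.

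Promoter sequences are shown for the testis and somatic forms of 2 pairs, since the forms of a pair differed in level in every library. They are the 250 bases before the RefSeq start site in GRCm38.p6 (the build that mm10 names), all on the minus strand, and are written 5′ to 3′ in the direction of the gene. They lie at chr2:76360454-76360703 (Cyct), chr6:50566570-50566819 (Cycs), chr7:4753095-4753344 (Cox6b2) and chr7:30626115-30626364 (Cox6b1). The following 4 motifs were searched on both strands, and capitals mark a match: TGACGTCA, the cAMP response element bound by CREB and CREM; TGACGT, its short form, which TGACGTCA contains; GCATGCGC, a form of the site of NRF1, a regulator of nuclear genes for mitochondrial proteins; and CCGGAAG, a form of the site of ETS factors such as GABP.
Cyct: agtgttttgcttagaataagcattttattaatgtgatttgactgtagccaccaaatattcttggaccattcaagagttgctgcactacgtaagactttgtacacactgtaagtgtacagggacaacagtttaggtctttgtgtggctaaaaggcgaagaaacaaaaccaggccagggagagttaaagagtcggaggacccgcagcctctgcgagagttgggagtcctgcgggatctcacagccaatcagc
Cycs: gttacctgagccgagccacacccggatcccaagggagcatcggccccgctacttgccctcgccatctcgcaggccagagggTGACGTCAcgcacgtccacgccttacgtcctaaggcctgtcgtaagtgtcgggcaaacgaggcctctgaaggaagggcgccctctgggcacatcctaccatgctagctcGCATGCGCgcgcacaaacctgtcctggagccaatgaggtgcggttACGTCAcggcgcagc
Cox6b2: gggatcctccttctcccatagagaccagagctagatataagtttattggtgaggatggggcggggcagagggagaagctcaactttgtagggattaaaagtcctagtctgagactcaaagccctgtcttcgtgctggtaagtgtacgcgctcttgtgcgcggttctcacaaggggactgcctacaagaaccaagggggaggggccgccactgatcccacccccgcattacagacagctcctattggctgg
Cox6b1: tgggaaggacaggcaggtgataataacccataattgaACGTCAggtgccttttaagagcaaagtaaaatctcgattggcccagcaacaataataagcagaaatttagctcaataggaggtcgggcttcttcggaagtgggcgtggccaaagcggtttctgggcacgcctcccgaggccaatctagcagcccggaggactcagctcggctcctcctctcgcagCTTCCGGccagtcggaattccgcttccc

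The promoters of the testis forms Cyct and Cox6b2 held none of the 4 motifs. The promoter of Cox8c was not examined. That of Cycs held TGACGTCA, TGACGT and GCATGCGC, and that of Cox6b1 held TGACGT and CCGGAAG. The promoter of Cox8a held TGACGT. Of 27025 promoters of the same length TGACGTCA was in 1.62%, TGACGT in 6.56%, GCATGCGC in 2.32% and CCGGAAG in 7.05%. Of the 98 genes 79 had a promoter in the table, and the motifs were in 5, 10, 10 and 13 of them (6.33%, 12.7%, 12.7% and 16.5%). A match is a description of the letters and not of binding.

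The testis forms Cox6b2, Cox8c and Cyct were above their somatic partners in all 15 libraries. The FPKM ratio ran from 2.28 (Cox6b2 in M5 replicate 3) to 24.1 (Cox8c in M3 replicate 1). In Con, Cox6b2 was at 272, 294 and 279.7 FPKM and Cox6b1 at 43.7, 57.9 and 45.3. Cox8c was at 774, 835 and 812 FPKM and Cox8a at 46.3, 53.3 and 48.2. Cyct was at 88.7, 102 and 93.0 FPKM and Cycs at 10.7, 11.4 and 10.04. The testis form therefore held 85.3% ± 1.48 (SD, n = 3) of the FPKM of its pair for Cox6b2, 94.2% ± 0.221 for Cox8c and 89.8% ± 0.519 for Cyct. A further pair, the testis form Cox7b2 and the X-linked Cox7b, gave 97.2% ± 0.404 for Cox7b2. The other tissue forms lay at the low end, with Cox6a2 at 0.0171% of its pair with Cox6a1, Cox4i2 at 0.207% of its pair with Cox4i1 and Cox7a1 at 3.07% of its pair with Cox7a2 in Con.

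In the pairs of Cox6b2, Cox8c and Cyct the somatic form held a larger share in the M5 libraries, though this did not pass the tests made. Cox6b2 was at 236, 225 and 275 FPKM in MNC and at 224, 195 and 208 in M5. Its partner Cox6b1 was at 52.4, 47.6 and 34.6 FPKM in MNC and at 59.6, 62.9 and 91.2 in M5. The 3 M5 libraries were thus lowest for the testis form and highest for the somatic form, with no overlap between M5 and MNC for either gene, although for Cox6b2 the nearest values were close (224 against 225). Cox8c was at 733, 687 and 710.0 FPKM in MNC and at 595, 574 and 453 in M5, again without overlap. Cox8a was at 52.0, 38.3 and 38.5 FPKM in MNC and at 49.7, 48.1 and 74.4 in M5, and these overlapped. In the cytochrome c pair both forms were higher in M5 than in MNC, with no overlap. Cyct was at 77.7, 73.7 and 78.6 FPKM in MNC and at 118, 109 and 108 in M5. Cycs was at 9.58, 8.54 and 7.57 FPKM in MNC and at 18.4, 17.7 and 24.1 in M5.

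**Figure D2:**
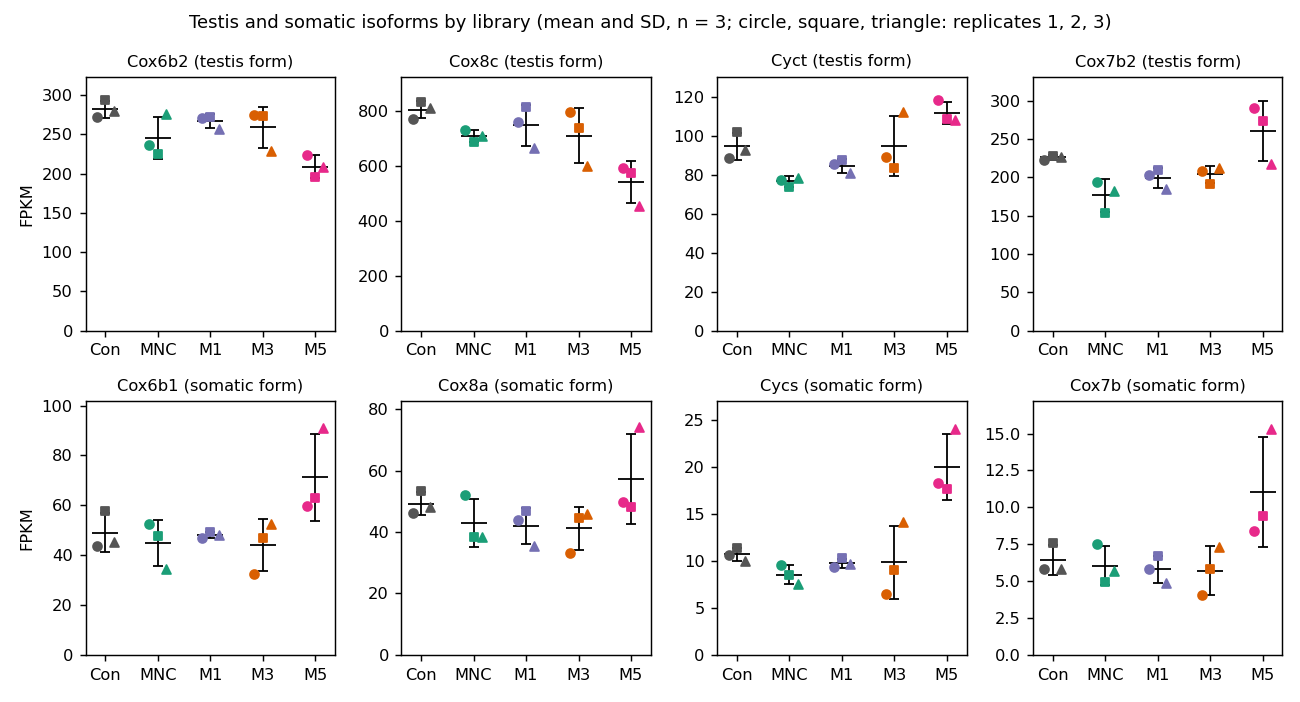
FPKM of 4 testis forms (top) and their somatic partners (bottom) in each library, with group means and SD (n = 3); each axis starts at 0 and has its own scale. M5 is the lowest group for Cox6b2 and Cox8c and the highest for Cyct, Cox7b2 and the 4 somatic forms, and M3 replicate 3 (triangle) is the highest M3 library for each somatic form.

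The share of the testis form in M5 was 74.7% ± 4.799 (SD, n = 3) for Cox6b2, 90.2% ± 3.68 for Cox8c and 84.8% ± 2.62 for Cyct. In MNC the shares were 84.4% ± 3.86, 94.3% ± 0.821 and 90.0% ± 1.14. Each of these shares was lower in all 3 M5 libraries than in any MNC library. The Cox7b2 pair did not follow this, with 97.2%, 96.7% and 93.4% in M5 overlapping 96.3%, 96.9% and 97.0% in MNC. The log2 ratio of the testis to the somatic form was lower in M5 than in MNC by -0.88 for Cox6b2 (1.84-fold), -0.80 for Cox8c (1.74-fold) and -0.59 for Cyct (1.51-fold). By two-sided exact permutation tests (n = 3 each), p was 0.1 for each pair, which is the lowest value that this design can give, and 0.5 after adjustment over the 15 ratio tests made. These differences therefore did not pass a test. M5 replicate 3 had the lowest share in each pair (69.5%, 85.9% and 81.8%), and without it the log2 differences were smaller, at -0.69, -0.48 and -0.44. For Cox6b2 the smallest difference, -0.62, was found without MNC replicate 3. M5 replicate 3 also had the highest Leydig and Sertoli cell sums, and the part of somatic cells in the shares was not tested. In the other 2 M5 libraries the Sertoli sums were 369 and 418 FPKM, against 447 to 509 in MNC, and the Leydig sums 1746 and 1503, against 1550 to 1993. The shares of these 2 libraries also lay below all MNC libraries. None of the 7 Sertoli and 6 Leydig markers was called between M5 and MNC, and none was at 0 in all libraries. The sums of 6 round spermatid markers were lower in M5 (990 to 1036 FPKM) than in MNC (1124 to 1148). Of these 6, 1 was called lower and 2 had differences above 0. Sums of 6 elongating spermatid markers overlapped (21832 to 30650 FPKM in M5, 22043 to 28183 in MNC), with 1 called lower and 3 above 0. The part of spermatids in the shares was not tested. For the other 12 ratio tests, between MNC and Con, M1 and MNC, M3 and MNC, and the injected groups and Con, exact permutation p lay between 0.444 and 1.

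**Figure D3:**
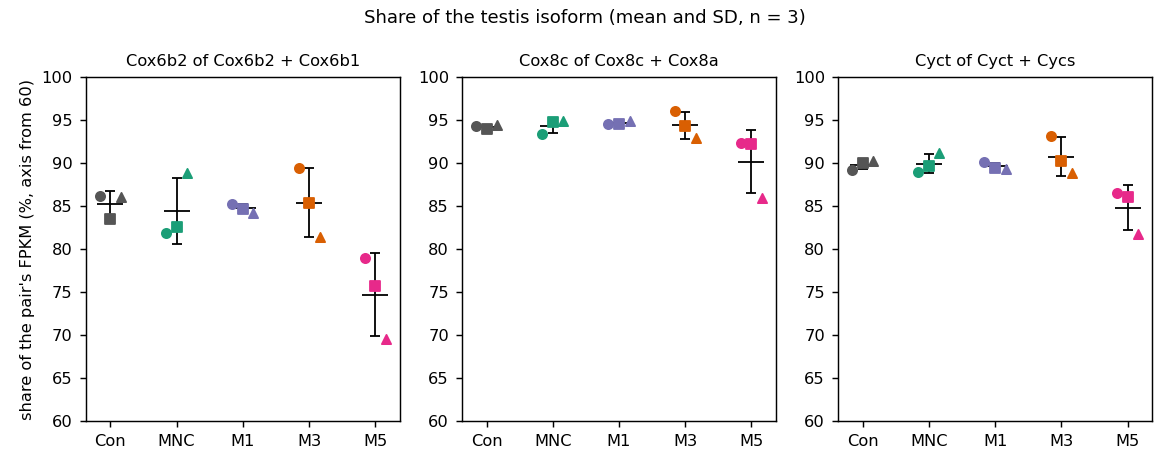
Share of the testis form in the summed FPKM of its pair (%, axis from 60 to 100), by library, with group mean and SD (n = 3). The 3 M5 libraries lie below all MNC libraries in each pair, and M3 replicate 3 (triangle) is the lowest M3 library.

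M3 replicate 3 lay towards M5 in these pairs as well. Its shares were 81.4% for Cox6b2, 92.9% for Cox8c and 88.8% for Cyct, each the lowest in M3. Cycs was at 14.2 FPKM in that library, against 6.51 and 9.0 in its mates, and Cox8c at 599.6 against 796 and 739. M3 replicate 1 stood at the other end, with the highest share of all 15 libraries in each pair (89.5%, 96.0% and 93.2%). It also had the lowest sum of the Leydig cell markers (654 FPKM).

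Between M5 and MNC, the comparison that asks which transcripts differ when M5 is knocked down rather than the vector given, 14 of the 94 respiratory chain genes passed the test (limma, adjusted p under 0.05 over all genes tested), 10 higher and 4 lower in M5. That is 14.9% of them, against 5.65% of all genes tested. Among all genes 2.76% were called higher and 2.89% lower. The groups did not overlap in 54 of the 94 genes (40 higher and 14 lower in M5), against 32.1% of all genes tested (16.6% higher and 15.5% lower). The median difference of the 94 genes was 0.13 on the log2 scale, and 0.03 over all genes. By complex, 5 of 37 genes were called in complex I, 1 of 8 assembly factors, none of 4 in complex II, 1 of 9 in complex III, both cytochrome c genes, 4 of 17 in complex IV and 1 of 17 in complex V.

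**Figure D4:**
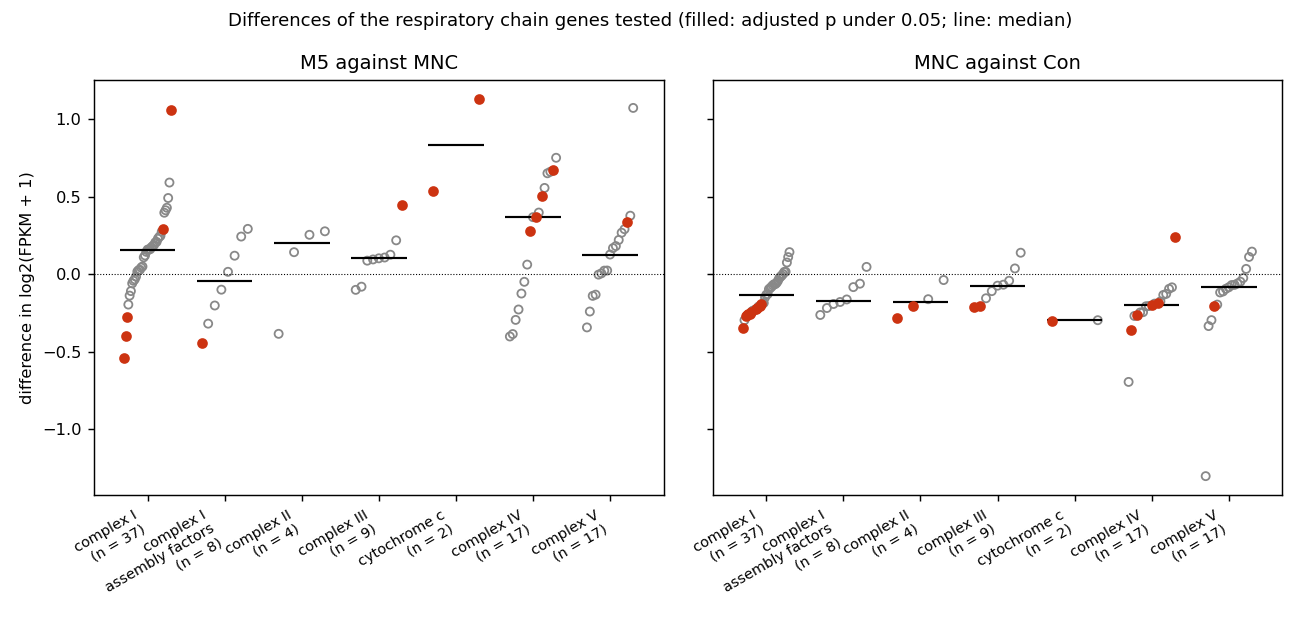
Difference in log2(FPKM + 1) of the 94 genes tested, by complex, for M5 against MNC (left) and MNC against Con (right); filled points passed limma at an adjusted p under 0.05 and lines are medians. Both cytochrome c genes rose in M5, complex I genes were called in both directions, and 20 of the 21 genes called between MNC and Con were lower in MNC.

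Both cytochrome c genes and 4 genes of complex IV rose, and no gene of complexes III to V was called lower. Cycs rose 2.19-fold (log2 difference 1.13, SE 0.14, limma adjusted p = 0.0166) and Cyct 1.45-fold (0.54, SE 0.06, limma adjusted p = 0.0131), by the values given above. Cox6c, a small subunit of complex IV, was at 160.2, 159 and 152 FPKM in MNC and at 255, 244 and 251 in M5 (0.67, limma adjusted p = 0.00354). Cox5b, which lies on the matrix side of complex IV, was at 144, 119 and 139 FPKM in MNC and at 186, 185 and 196 in M5 (0.50, limma adjusted p = 0.0291). All 3 M5 libraries were above all MNC libraries for each of these genes. Cox5a, a further subunit of complex IV, rose by 0.28 (limma adjusted p = 0.0339), with 242 to 257 FPKM in M5 and 204 to 207 in MNC. In Con, Cox5a was at 226.88 to 239.57 FPKM, above all MNC libraries and below all M5 libraries. The other 3 that rose outside complex I, named after their values were seen, were Uqcrb of complex III (0.45), Cox7a2 of complex IV (0.37) and Atp5mpl of complex V (0.34). Cox7a2 was at 161 to 166 FPKM in Con, overlapping M5 (165 to 191), while Uqcrb and Atp5mpl in Con lay below all M5 libraries.

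Complex I was divided. Ndufa3, an accessory subunit, rose 2.08-fold, from 32.2, 25.8 and 31.6 FPKM in MNC to 63.5, 61.3 and 63.9 in M5 (1.06, SE 0.09, limma adjusted p = 0.00634). Ndufs1, the largest core subunit and carrier of iron-sulfur clusters, was at 38.9 to 40.9 FPKM in M5 and 31.9 to 33.5 in MNC (0.29, limma adjusted p = 0.0395). Con was at 37.5 to 40.86 FPKM for Ndufs1, overlapping M5, and at 25.86 to 30.95 for Ndufa3, below all M5 libraries. The other direction held 3 accessory subunits. Ndufc1 fell from 241, 233 and 231 FPKM to 164, 159 and 160.1 (-0.54, SE 0.05, limma adjusted p = 0.00647), Ndufa8 from 60.8, 56.6 and 64.2 to 45.8, 42.3 and 48.8 (-0.40, limma adjusted p = 0.0395) and Ndufa7 from 166, 162 and 161 to 137, 126 and 140.1 (-0.28, limma adjusted p = 0.0489). The assembly factor Ndufaf3 was at 147, 149 and 179 FPKM in MNC and 117, 120.15 and 109.87 in M5 (-0.44, limma adjusted p = 0.0428). Ndufv1, the core subunit that binds NADH, had a difference of -0.20 (limma adjusted p = 0.0797) and was not called.

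None of the other core subunits examined passed the test between M5 and MNC. In complex II, Sdha (the flavoprotein subunit) had a difference of 0.25 (limma adjusted p = 0.0755) and Sdhb of 0.14 (limma adjusted p = 0.192). In complex III, Uqcrc1 had 0.10, Uqcrfs1 (the Rieske iron-sulfur protein) 0.09 and Cyc1 -0.08. In complexes IV and V, Cox4i1 had 0.06, Atp5a1 0.13 and Atp5b -0.14. The isoform genes were not called singly, with Cox6b2 at -0.23 (limma adjusted p = 0.191), Cox6b1 at 0.65 (limma adjusted p = 0.116), Cox8c at -0.40 (limma adjusted p = 0.0842), Cox8a at 0.40 (limma adjusted p = 0.268) and Cox7b2 at 0.56 (limma adjusted p = 0.064). Against Con in place of MNC, M5 was called lower for Cox6b2 (-0.43, limma adjusted p = 0.00928) and Cox8c (-0.59, limma adjusted p = 0.0159), while the call of Cyct was lost (0.24, limma adjusted p = 0.0561).

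**Figure D5:**
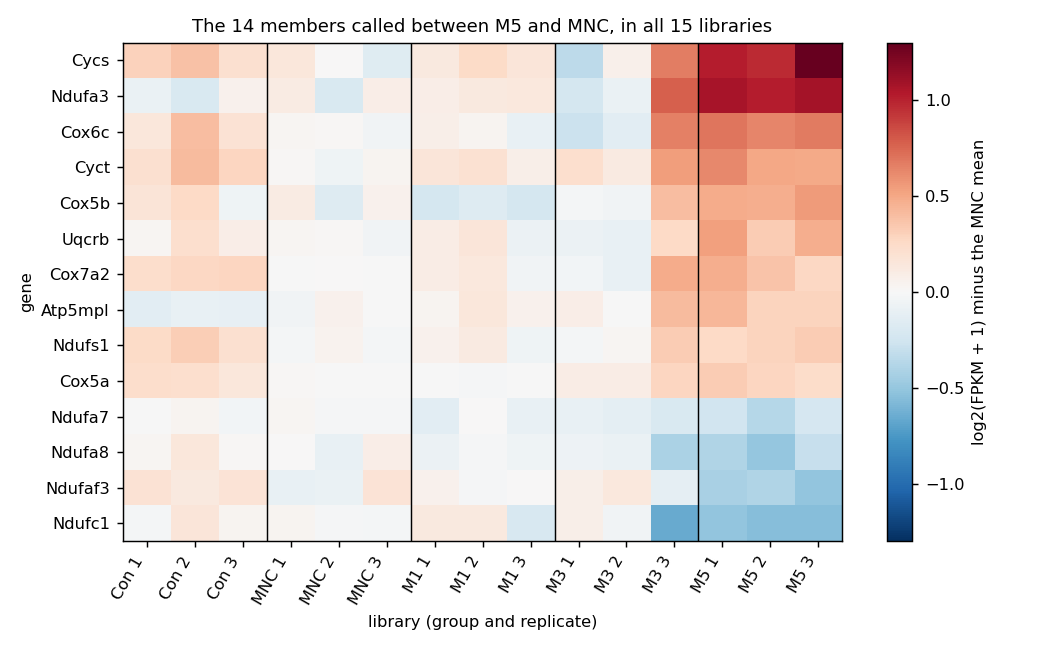
log2(FPKM + 1) of the 14 genes called between M5 and MNC, in all 15 libraries, relative to the MNC mean (red higher, blue lower). The 3 M5 libraries differ from MNC by choice of the genes; M3 replicate 3 has the signs of M5 for all 14 genes, while neither of its 2 mates has them for all 14.

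For each of the 14 genes M3 replicate 3 lay beyond both of its mates on the side of M5. Among the other libraries outside M5, between 0% and 71.4% of the 14 genes deviated towards M5 from their mates. Ndufa3 was at 51.7 FPKM in M3 replicate 3, against 25.1 and 27.8 in its mates, Cox6c at 247 against 129 and 143, and Ndufc1 at 149 against 248 and 227.

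The count of 14 depended on single libraries and on scaling. Leaving out M5 replicate 1 left 4 genes called, and leaving out M5 replicate 2 left 2. When MNC replicate 1 was dropped 6 were called, and when either of the other MNC replicates was dropped 3 were called. Without M5 replicate 3, 15 genes were called, 12 of them among the 14. With each library centred on its median 4 were called (3 higher and 1 lower), 5 with the trend in GC content removed (3 higher and 2 lower), and 27 with Con as the control (10 higher and 17 lower). Cycs, Ndufa3, Cox6c and Ndufc1 were called in each of these 3 settings. Across genes, which are not independent, the difference between M5 and MNC had a Spearman correlation with GC content of -0.45 over all 13364 genes with a known value and of -0.21 over 93 respiratory chain genes. The sum of 6 spermatocyte markers was 387 to 409 FPKM in M5 and 379.7 in M3 replicate 3, against 283 to 306 in MNC and 381 to 401 in Con, with 2 of the 6 called higher in M5. The sum of the round spermatid markers was 1056 FPKM in M3 replicate 3 and 942 to 968 in Con, and 1 of the 6 was called lower in M5 than in MNC. Of the 5 red blood cell markers 3 were called higher. The part of cell composition in the differences was not tested.

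Between M5 and M1, which share no control, 16 of the 94 passed, 10 of them higher in M5 and 6 lower (17%, against 6.75% of all genes tested, 3.23% higher and 3.52% lower). Groups did not overlap in 59 of the 94, against 33.7% of all genes. Cycs was at 9.37, 10.3 and 9.65 FPKM in M1 (difference 0.95, limma adjusted p = 0.0132), Ndufa3 at 31.5, 32.6 and 32.9 (0.94, limma adjusted p = 0.000751), Cox5b at 114, 118 and 113 (0.71, limma adjusted p = 0.00238) and Cox6c at 165, 161 and 147 (0.66, limma adjusted p = 0.00646). Ndufs6, an accessory subunit of complex I, rose by 0.42 (limma adjusted p = 0.0246). The testis form Cox6b2, at 271, 272 and 257 FPKM in M1, was lower in M5 by -0.35 (limma adjusted p = 0.0296). Also lower were Ndufc1 (-0.56), Ndufa4l2 (-0.53), Ndufaf3 (-0.46) and Ndufa8 (-0.35). Over 12 alternative fits the call of Ndufs6 was lost in 10, and those of Cox6b2, Ndufa4l2 and Ndufa8 in 8 each. Ndufc1 lost it in 7, Ndufaf3 in 5, Cycs in 3 and Cox6c in 1. Ndufa3 and Cox5b kept it in all 12. The M5 libraries are the same as in the comparison with MNC. Leaving out M1 replicates 1, 2 and 3 in turn gave 3, 6 and 4 genes, and leaving out M5 replicates 1, 2 and 3 in turn gave 7, 5 and 25. With libraries centred on their medians 5 genes were called, 4 higher and 1 lower.

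No respiratory chain gene was called in M1 or in M3 against MNC. limma called none of the 94 between M1 and MNC, where 0% of all genes were called. At an unadjusted p under 0.05 there were 3, against 5.94% of all genes. Those 3 were Cyct (0.14), Ndufa6 (-0.16) and Cox5b (-0.21), each with a limma adjusted p of 0.819. Groups did not overlap in 7 of the 94 genes, against 12% of all genes. Between M3 and MNC limma also called none of the 94, where 0.00689% of all genes were called. At an unadjusted p under 0.05 there were again 3, against 9.43% of all genes. Those were Ndufa7 (-0.14), Atp5j (0.18) and Cyct (0.29), each with a limma adjusted p of 0.518. Groups did not overlap in 10 of the 94 genes, against 17.1% of all genes. Cyct was at 85.4, 87.8 and 81.0 FPKM in M1 and at 89.2, 83.5 and 112 in M3, above all MNC libraries, but not above all Con libraries. Without M3 replicate 3 the count between M3 and MNC was still 0. Set against Con instead, 33 genes were called in M1 and 7 in M3. M1, M3 and M5 were each compared with the same 3 MNC libraries.

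The comparison of MNC with Con asks what goes with injection of the vector. In MNC 21 of 94 genes were called, 1 higher and 20 lower, which is 22.3% of them against 20.4% of all genes tested (8.03% higher and 12.4% lower). Groups did not overlap in 45 genes, 3 higher and 42 lower, against 46.5% of all genes (15% higher and 31.5% lower). The median was -0.15, and -0.10 over all genes. Cox7b2 fell from 223, 228 and 227 FPKM in Con to 194, 153 and 182 in MNC (-0.36, limma adjusted p = 0.0382). Ndufc2, a membrane subunit of complex I, fell from 43.2, 46.3 and 41.5 to 34.6, 32.8 and 35.0 (-0.35, limma adjusted p = 0.021). Cyct (-0.30), Sdha (-0.28) and Ndufab1 (-0.27), the mitochondrial acyl carrier protein, were the next by size among the genes called. Cox7a2l, a factor in the joining of complexes III and IV, was the one gene called higher (0.24, limma adjusted p = 0.0464). With each library centred on its median, which moves the median of all genes to near 0, 3 genes were called, 2 higher and 1 lower, and with the GC trend removed 8, 2 higher and 6 lower. Leaving out Con replicate 1 or Con replicate 2 gave 0 genes, Con replicate 3 gave 9, MNC replicate 2 gave 1 and MNC replicate 3 gave 5. Between the same groups 5 of 6 spermatocyte markers were called lower in MNC (median -0.43) and 4 of 6 round spermatid markers higher (median 0.26), and their part in the differences was not tested.

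With all 12 injected libraries against Con, 29 genes were called, 2 higher and 27 lower, which is 30.9% against 34.2% of all genes tested (11.8% higher and 22.4% lower). In 6 genes all injected libraries lay on one side of all Con libraries, against 17.8% of all genes. Atp5mpl, a small subunit of complex V, was the one that was higher, at 130, 133 and 132 FPKM in Con and 138 to 192 in the injected libraries (0.26, limma adjusted p = 0.0127). Ndufb10, an accessory subunit, was at 97.7, 97.3 and 91.0 FPKM in Con and 75.4 to 86.2 in the injected libraries (-0.22, limma adjusted p = 0.00247). Ndufa9 (-0.21), the assembly factor Ndufaf7 (-0.20) and Uqcrc2 (-0.19), a core protein of complex III, were lower as well. The 98 genes together held 1.88% to 2.06% of the summed FPKM in Con and 1.63% to 1.82% in the injected libraries, given here without a test. Centring left 5 genes called, 3 higher and 2 lower, and removal of the GC trend 9, 4 higher and 5 lower. The count was 10 without Con replicate 1, 9 without Con replicate 2 and 39 without M3 replicate 3. Epididymis markers, of which 2 of 5 passed the filter, were higher in Con than in all injected libraries but M3 replicate 1, and elongating spermatid markers were lower (6 genes, 10517 to 20766 FPKM in Con and 21832 to 30650 in the injected libraries, 5 of 6 called). Their part in these differences was not tested.

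The pathway around the chain was described by further lists. None of the 13 subunits encoded in mitochondrial DNA was among the rows used here. Of 18 genes of the tricarboxylic acid cycle, which feeds electrons to the chain, 4 rose and none fell between MNC and M5 (median 0.22), which is 22.2% of them against 5.65% of all genes tested. Their summed FPKM was 916 to 928 in M5, 776 to 790.0 in MNC, 846 to 941 in Con and 904 in M3 replicate 3. Of 42 assembly factors outside the name rule that were tested, 2 rose and 1 fell in M5 (median 0.04), a share of 7.14% that is near that of all genes. Of 12 regulators of mitochondrial genes tested none was called in M5 (median -0.01), and of 10 other testis forms of mitochondrial proteins none was called (median 0.00012). Between MNC and Con, where 20.4% of all genes were called, 6 of the 18 cycle genes were lower and none higher (33.3%). The 42 assembly factors had 3 higher and 5 lower (19%), the 12 regulators 3 lower (25%) and the 10 other testis forms 1 higher and 1 lower (20%), shares near that of all genes.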

How the data were processed

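RNA of 15 testis libraries was sequenced, and the authors deposited 1 table of FPKM values (fragments scaled by gene length and by the mapped total, to 2 decimals) per gene and library. Per the study's methods reads were mapped with SOAPaligner, and the methods also name RPKM. The submitters' processing notes name the build mm10. All 15 columns were used, and 0 columns of values were left out. Groups and replicate numbers came from the titles. The description of M5 replicate 2 points to the M5-1 column, so M5 replicates 1 and 2 rest on their titles. Read counts were not used here, so the count model of the study was not run and depth is unknown.

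Of 23510 gene IDs 21143 matched RefSeq (GRCm38.p6), which supplied symbols and promoters. Lengths and GC content were those of the longest GENCODE transcript of each gene. Genes with a mean of 1 FPKM or more (14514) were analysed as log2(FPKM + 1) with limma 3.58.1 (lmFit, eBayes with trend) in R 4.3.3. Each fit held the 2 groups compared, except that the injected groups were set against Con in a fit of all 5 groups. P-values were two-sided and adjusted by Benjamini-Hochberg over all genes tested, and a gene was called under 0.05. Differences on this scale understate changes of low genes. Isoform ratios were compared by exact permutation. Many of these small genes have processed pseudogenes, and their reads could be split in counting. On simulated data for M5 against MNC (14514 genes, 5 sets of 200 genes changed by 1 log2 unit), 81.9% of changed genes were called, 6.61% of calls were false and 0 genes were called with none changed. The simulated noise was independent between genes and libraries. It held no library shifts or GC trend, so these rates may not hold for the real libraries.

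Named were the isoform pairs and tissue forms, the highest and lowest gene of each complex, 11 core subunits, and per comparison all genes called if 10 or fewer, otherwise the 5 largest rises and 5 largest falls without overlap, or the 3 lowest p where none was called. One gene that this rule names is not reported here. The members and lists were chosen with earlier results of these data known. Alternatives were a pseudocount of 0.1, no filter, centring, all groups in 1 fit, a replicate block, removal of the GC trend, leaving out each replicate in turn, and Con as the control. Python 3.11.15, pandas 2.3.3, numpy 2.4.6 and scipy 1.17.1 were also used.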

Additional observations from a re-analysis of the deposited data

Results flagged for a closer look

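The knockdowns of M5 and M1 were set against each other directly, and 16 of the 94 respiratory chain genes tested differed between them (limma, adjusted p under 0.05), which is why this comparison is listed here. Of the 16 genes, 10 were higher and 6 were lower in M5, and 6.75% of all genes tested were called (3.23% higher and 3.52% lower). Cycs and Ndufa3 led the genes that were higher in M5 (0.95 and 0.94 on the log2 scale), and all 3 M5 libraries lay above all M1 libraries for both. With the 6 leave-one-out fits the count ran from 3 to 25.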

How the results depend on the processing

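Of the alternative counts of respiratory chain genes called, 18 moved by over 1.5 times and 27 did not with one library left out, and 18 moved and 20 did not under the other settings. With one library left out they ran from 0 to 16 for MNC against Con, 2 to 15 for M5 against MNC, 3 to 25 for M5 against M1 and 9 to 39 for the injected groups against Con, and stayed at 0 for M1 and M3 against MNC. Without the filter, counts were 11 for MNC against Con, 9 for M5 against MNC and 8 for M5 against M1. Centring on the median gave 3, 4 and 5 for these, and 5 for the injected groups. Removal of the GC trend gave 8, 5, 6 and 9. All 5 groups in one fit gave 30 for M5 against MNC. Con as the control gave 33 in M1, 7 in M3 and 27 in M5. With a replicate block, 0 genes were called for MNC against Con, 0 for M5 against MNC and 2 for M5 against M1. The block is given only here, since deviations of libraries with the same number correlated by between -0.40 and 0.18 and the labels do not say that a number marks a pair.

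Differences of single genes were followed through the alternatives only for the genes named by call or lowest p in each comparison. For M5 against MNC the pairs of Cox6b2, Cox8c and Cyct were added. The core subunits and the other tissue forms were not followed as such. The differences followed kept their direction in all but 3 alternatives, each with Con as the control: Cyct in M1 (-0.16), Atp5j in M3 (-0.015) and Cyct in M3 (-0.0051). With one library left out, 215 of these values kept their status, 84 lost the call and 1 gained it. Under the other settings 177 kept their status, 74 lost the call, 5 gained it and 3 were reversed. The isoform ratios of M5 against MNC ran from -1.04 to -0.62 for Cox6b2, -0.96 to -0.48 for Cox8c and -0.69 to -0.44 for Cyct with one library left out. Ratio differences of the other comparisons lay between -0.26 and 0.16 with all libraries. No test of them was passed. In comparisons of 2 groups none could be, since the exact permutation p could not fall under 0.1. With one library left out these differences changed sign in 19 values. For Cox6b2 they ran from -0.33 to 0.075 (MNC against Con), -0.14 to 0.26 (M1) and -0.13 to 0.37 (M3). For Cox8c they ran from -0.047 to 0.14, -0.026 to 0.16 and -0.18 to 0.25, and for Cyct from -0.10 to 0.064, -0.10 to 0.060 and -0.037 to 0.31. With a pseudocount of 0.1 the ratio of Cyct between MNC and Con turned from -0.0024 to 0.023. The causes of these shifts were not tested. Depth is unknown, and 3 libraries a group limit what could be called.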
